A study of Mus musculus with 6 samples.

Results

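On distal mouse chromosome 4 lies a cluster of KRAB zinc finger genes, and 6 of them, Zfp990, Zfp993, Zfp991, Zfp982, Zfp985 and Zfp984, are described here in ovaries with and without Galt, the gene of the galactose enzyme lost in classic galactosemia. They are 6 of the 55487 genes in the count table: the listed Zfp genes that start beyond 140 Mb of chromosome 4 on GRCm38, chosen because they differed between the genotypes, in both directions. Total RNA was sequenced from ovaries of 3 wildtype and 3 GalT-/- (GalTKO) samples at postnatal day 49. Every sample carries the strain label cbl/6-ola/129, and mice of both genotypes were fed 2.5% galactose in their chow over 4 weeks once weaned. The labels do not say whether a sample is a single animal or a pool, how the animals were related, or which strain's haplotype each carried across the cluster, so p-values speak only to how far these samples vary. Libraries held between 19232486 and 25729564 counts. Levels are in CPM, counts scaled to library size. Galt stood at 17.8, 16.1 and 17.4 CPM in the wildtype and at 0.155, 0.259 and 0 CPM in the GalTKO libraries, listed from replicate 1 to 3 as in all that follows.

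KRAB zinc finger proteins are a large family of vertebrate transcriptional repressors. A string of zinc fingers at the carboxyl end, each held by a pair of cysteines and a pair of histidines around a zinc ion, reads a DNA sequence, and the KRAB box near the amino end binds TRIM28, which gathers enzymes that lay down repressive chromatin. Many of these proteins silence transposable elements, and their genes lie in clusters that grow by duplication, so that neighbours are often near-copies of each other. The DNA targets of the individual members are not addressed by these data.

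The cluster spans 2.34 Mb from the start of Zfp990 to the end of Zfp933 and holds 20 genes with a zinc finger protein or a Zfp symbol. All 6 members have a KRAB box in their translated coding sequence. A stretch of 60 coding bases from that box is shown because it shows how alike the members are. Capitals mark the 8 positions at which the 6 genes are not all the same:
Zfp990: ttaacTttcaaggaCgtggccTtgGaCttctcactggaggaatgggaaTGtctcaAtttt
Zfp993: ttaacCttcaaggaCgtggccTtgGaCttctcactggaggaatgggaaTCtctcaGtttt
Zfp991: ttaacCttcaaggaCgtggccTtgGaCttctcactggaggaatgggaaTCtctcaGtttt
Zfp982: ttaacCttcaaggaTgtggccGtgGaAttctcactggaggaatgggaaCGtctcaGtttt
Zfp985: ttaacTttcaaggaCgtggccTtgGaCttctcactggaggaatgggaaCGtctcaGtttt
Zfp984: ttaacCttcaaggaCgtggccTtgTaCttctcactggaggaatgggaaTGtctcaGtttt
Member pairs differed at 0 to 6 of the 60 bases. Zfp991 and Zfp993 were identical there, and so were Zfp991 and Zfp992, a cluster gene that is not a member. Zfp990, which was higher in GalTKO ovaries, differed from Zfp985, the other higher member, at 2 bases. The lower member Zfp984 likewise differed from Zfp991 and from Zfp993, also lower, at 2 bases. Zfp990 and Zfp985 each differed at 1 base from Zfp987, which is not a member. Likeness in this stretch is thus not particular to the higher members. These exon stretches lie at chr4:145534822-145534881 for Zfp990, chr4:146655806-146655865 for Zfp993, chr4:147176753-147176812 for Zfp991, chr4:147510759-147510818 for Zfp982 and chr4:147581248-147581307 for Zfp985, all on the plus strand, and at chr4:147757763-147757822 on the minus strand for Zfp984 (GRCm38, GENCODE M21 transcripts).

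The fingers are the DNA-reading part of the protein. The first finger of each is shown in its 63 coding bases, from the first cysteine codon to the last histidine codon, with the 4 codons that hold the zinc ion in capitals:
Zfp990: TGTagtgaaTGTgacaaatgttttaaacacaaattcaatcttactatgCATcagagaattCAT
Zfp993: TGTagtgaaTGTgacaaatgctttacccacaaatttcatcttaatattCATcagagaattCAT
Zfp991: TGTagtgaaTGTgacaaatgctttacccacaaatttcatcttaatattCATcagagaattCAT
Zfp982: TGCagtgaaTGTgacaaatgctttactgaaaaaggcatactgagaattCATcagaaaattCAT
Zfp985: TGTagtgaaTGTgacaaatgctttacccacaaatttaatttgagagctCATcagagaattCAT
Zfp984: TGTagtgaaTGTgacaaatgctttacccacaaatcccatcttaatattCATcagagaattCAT
Zfp991 and Zfp993 are identical here as well. By the pattern of cysteines and histidines, 13 fingers were found in Zfp990, 11 in Zfp991, 11 in Zfp984, 10 in Zfp985, 7 in Zfp982 and 2 in Zfp993, whose annotated coding sequence of 940 bases stops short of a whole number of codons. Over the whole coding sequence Zfp990, Zfp991, Zfp985 and Zfp984 were 80.4% to 87.1% identical to each other. Member pairs with the shorter Zfp982 or Zfp993 lay between 49.8% and 70.3%, in part because edits are divided by the longer sequence. Zfp987, a cluster gene that is not a member, was 89.3% identical to Zfp990.

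Zfp990, the first gene of the cluster (ENSMUSG00000078503; chr4:145510759-145539188, plus strand, protein coding), was nearly silent in wildtype ovaries and present in every GalTKO library. It had 0, 0 and 5 counts in the wildtype libraries, and 121 counts in each of the 3 GalTKO libraries. Scaled to library size, the wildtype level was 0, 0 and 0.217 CPM and the GalTKO level 4.68, 5.22 and 6.30 CPM. The groups did not overlap, and the only wildtype reads lay in replicate 3. The fitted log2 fold change was 6.16 ± 0.69 (SE), given without a test because this contrast chose the gene. The ratio of summed counts was 76.3 (95% interval 32.4 to 236.5, counting error only). Without wildtype replicate 3 the wildtype group had no count, and Zfp990 was then at least 86.3-fold higher, taking 3 counts over that group as its floor and the GalTKO counts as exact. That value leaves out every wildtype read of the gene, so it is not a lower limit for all 6 libraries.

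Zfp985 (ENSMUSG00000065999; chr4:147553277-147585198, plus strand) was the second member with a higher level in GalTKO ovaries. Its counts were 2, 2 and 6 in the wildtype libraries and 34, 43 and 23 in the GalTKO libraries. The corresponding levels were 0.0800, 0.0846 and 0.260 CPM against 1.32, 1.85 and 1.20 CPM. Every GalTKO library lay above every wildtype library, and wildtype replicate 3 again had the most reads of its group. The log2 fold change was 3.33 ± 0.49 (SE), and it was 4.06 without wildtype replicate 3. The ratio of summed counts was 10.5 (95% interval 5.49 to 22.6, counting error only).

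Zfp982 (ENSMUSG00000078496; chr4:147492417-147513486, plus strand), the neighbour of Zfp985, was lower in GalTKO ovaries by the largest factor among the 4 lower members. It stood at 3.80, 5.07 and 6.37 CPM in the wildtype libraries and at 0.387, 0.302 and 0.573 CPM in the GalTKO libraries. The wildtype libraries were spread more widely, with an SD of 1.28 CPM, than those of Zfp991 (0.57 CPM), but the lowest of them lay far above the highest GalTKO library. The log2 fold change was -3.60 ± 0.34 (SE), a 12.1-fold lower level. The intergenic gap between Zfp982 and Zfp985 is 39.8 kb, and both are transcribed in the same direction, so a gene with a lower and a gene with a higher level in GalTKO ovaries lie side by side.

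The sequences just upstream of this adjacent pair are shown because they flank genes that differed in opposite directions. They are the 250 bases before a RefSeq start on GRCm38.p6 (RefSeq lists 3 starts for Zfp982, and the one at the start of the GENCODE gene is used), at chr4:147492167-147492416 for Zfp982 and chr4:147553027-147553276 for Zfp985, on the plus strand, with capitals at bases that do not match in their alignment:
Zfp982: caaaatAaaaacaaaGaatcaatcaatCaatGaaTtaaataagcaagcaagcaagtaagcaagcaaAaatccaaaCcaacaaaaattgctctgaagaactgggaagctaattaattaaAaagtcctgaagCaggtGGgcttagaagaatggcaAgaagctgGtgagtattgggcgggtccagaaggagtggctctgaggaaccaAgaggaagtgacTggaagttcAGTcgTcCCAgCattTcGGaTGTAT
Zfp985: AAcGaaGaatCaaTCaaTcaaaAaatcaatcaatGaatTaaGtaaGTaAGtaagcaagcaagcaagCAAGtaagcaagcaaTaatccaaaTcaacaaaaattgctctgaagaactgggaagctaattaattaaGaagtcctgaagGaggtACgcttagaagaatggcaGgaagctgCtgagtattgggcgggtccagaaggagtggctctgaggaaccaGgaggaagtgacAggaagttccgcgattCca
The end-to-end alignment needed 46 edits, an identity of 81.6%. The windows are offset within the sequence they share, so part of the edits and capitals at their ends reflects that offset. Over windows of 300 bases the pair was 82.0% identical. Zfp982 was closer to Zfp987 (89.0%) and Zfp979 (85.3%), and less close to Zfp984 (72.0%). Zfp985 was closer to Zfp987 (84.3%) and Zfp980 (84.0%), and less close to Zfp984 (67.7%). The likeness is thus not particular to this pair. The motif GGGCGG, searched on both strands, occurred once in each, as it did at least once in 32.7% of the 32851 upstream windows of the same length in the RefSeq table. CCAAT, on both strands, likewise occurred once in each (33.8% of windows), and neither TATAAA (12.4%) nor CACGTG (6.0%) was found.

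Zfp991 (ENSMUSG00000067916; chr4:147132038-147180579, plus strand) was among the most abundant members in wildtype ovaries. It stood at 10.7, 11.8 and 10.8 CPM in the wildtype libraries and at 1.97, 2.03 and 3.02 CPM in the GalTKO libraries. The groups were far apart, with GalTKO replicate 3 the highest of its group. The log2 fold change was -2.25 ± 0.20 (SE), a 4.77-fold lower level.

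Zfp993 (ENSMUSG00000063245; chr4:146610961-146658160, plus strand) was lower in GalTKO ovaries at a much smaller number of reads. Its counts were 31, 23 and 23 in the wildtype libraries and 5, 2 and 2 in the GalTKO libraries, or 1.07 ± 0.15 and 0.128 ± 0.057 CPM (SD, n = 3). All wildtype libraries lay above all GalTKO libraries. The log2 fold change was -2.98 ± 0.43 (SE), and -3.43 without GalTKO replicate 1. The ratio of summed counts, wildtype over GalTKO, was 8.14 (95% interval 4.07 to 18.5, counting error only).

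Zfp984 (ENSMUSG00000078495; chr4:147753974-147809788, minus strand) had the smallest difference of the 6. It stood at 10.6, 12.5 and 11.1 CPM in the wildtype libraries and at 7.28, 5.65 and 7.18 CPM in the GalTKO libraries. The groups did not overlap, and GalTKO replicate 2 was the lowest library. The log2 fold change was -0.77 ± 0.16 (SE), a 1.70-fold lower level. Long noncoding RNA genes overlap 3 members: Gm26573 lies opposite Zfp993, C230088H06Rik opposite Zfp991, and Gm26624 on the strand of Zfp991. Whether the counting used strand is not stated, so reads of such pairs cannot be told apart. Another, Gm20707, overlaps the start of Zfp984 on the same strand. Gm20707 stood at 2.53 ± 0.39 and 2.62 ± 0.12 CPM with the wildtype mean first (0.05 ± 0.23 on the log2 scale; edgeR adjusted p = 0.935).

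**Figure D1:**
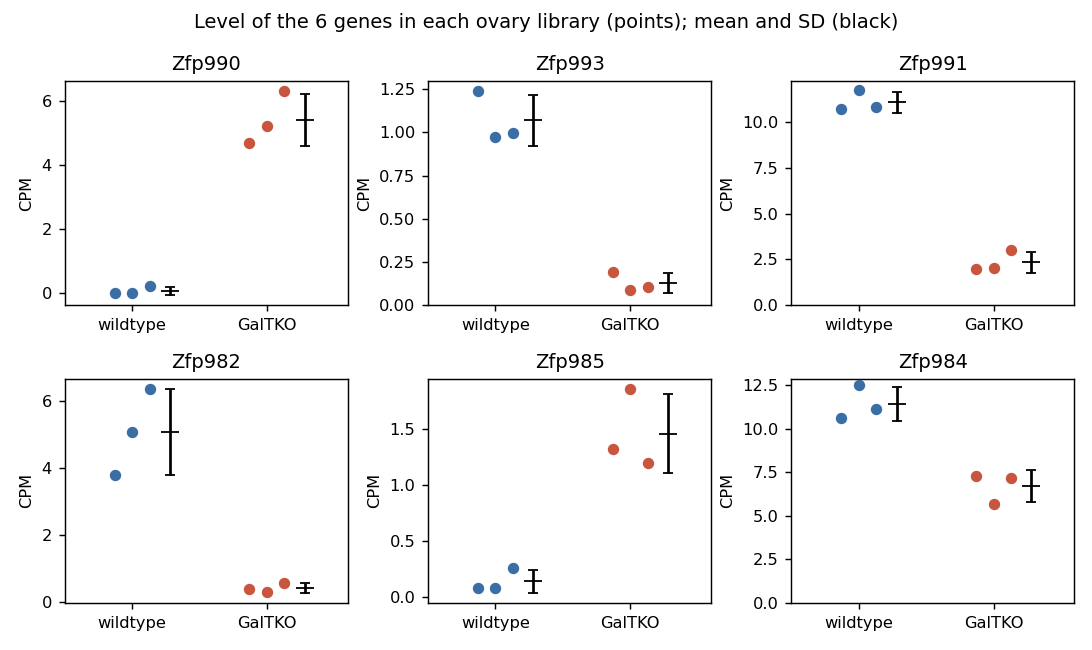
Level in CPM (vertical axes, linear from 0, each gene on its own scale) of the 6 zinc finger genes in the 3 wildtype (blue) and 3 GalTKO (red) ovary libraries, one point per library, with the mean and SD in black. Zfp990 and Zfp985 are higher and the other 4 genes lower in GalTKO libraries, with no overlap between the groups, and Zfp984 has the smallest separation.

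As a description, all 6 members passed an adjusted p of 0.05, 2 higher and 4 lower, which 2.55% of the 16957 tested genes did (1.13% higher, 1.43% lower). All 6 had groups that did not overlap, as 23.7% of tested genes had (11.8% higher, 12.0% lower), and 5 differed at least 4-fold, as 1.24% did. The members were chosen on this contrast, so none of these counts supports anything. The member nearest the threshold was Zfp984, at -0.77, and the cluster zinc finger genes next in p beyond it were Zfp933, at 0.43, and Zfp981, at 0.95 ± 0.42 (log2 fold change, SE). Zfp984 was past the threshold in none of the 6 fits with a library left out, nor with the replicate number as a block. Zfp993 and Zfp985 were not past it without wildtype replicate 1 or 2, which left 3 members. Set against all 369 tested genes named Zfp and a number (the 6 members and 363 others), Zfp990, Zfp982, Zfp985 and Zfp993 held ranks 1 to 4 by size of the log2 fold change and Zfp991 rank 7. These ranks come from the contrast that chose the members, so they support nothing either.

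Levels can be compared between genes once divided by exon length. In wildtype ovaries Zfp984, Zfp991 and Zfp982 were the most abundant, at 3.92, 3.81 and 3.41 CPM per kb of exon, and their libraries overlapped, so their order is not resolved. Zfp993 followed at 0.839 CPM per kb, then Zfp985 at 0.0493 and Zfp990 at 0.0206, whose libraries overlapped. In GalTKO ovaries Zfp984 led at 2.30 CPM per kb and Zfp990 came second at 1.54. No neighbours in the GalTKO order overlapped. After Zfp990 came Zfp991 at 0.802, Zfp985 at 0.507, Zfp982 at 0.283 and Zfp993 at 0.100 CPM per kb. Zfp990 thus moved to the second place from the bottom of the order, where it and Zfp985 were not resolved. Zfp990 made up 0, 0 and 0.49% of the summed per-length level of the 6 genes in the wildtype libraries, and 24.9%, 29.6% and 29.1% in the GalTKO ones. Zfp982 went the other way, from 23.5%, 27.2% and 33.6% to 4.83%, 4.02% and 6.22%.

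**Figure D2:**
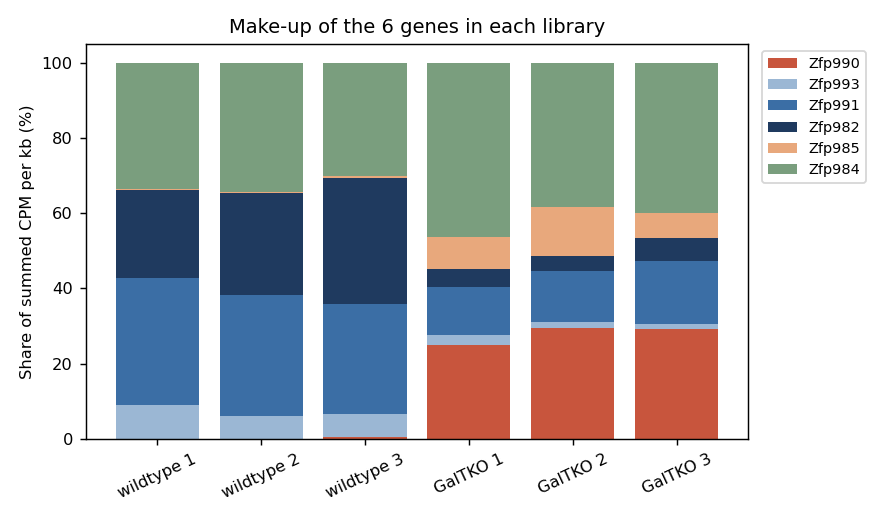
Share (%, vertical axis) of each of the 6 genes in their summed CPM per kb of exon, one bar per ovary library. Zfp984 keeps a share of 30.0% to 46.4% in all 6 libraries, while Zfp990 takes at least 24.9% in each GalTKO library and at most 0.49% in a wildtype library.

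The higher and lower members did not balance. Summed over the 6 genes, the level was 28.9 ± 2.14 CPM in wildtype and 16.5 ± 1.70 CPM in GalTKO libraries (SD, n = 3). The 6 genes were chosen on this contrast, so their sum is a description only. The 14 other zinc finger genes of the cluster summed to 42.5 ± 2.12 CPM in wildtype and 47.5 ± 3.98 CPM in GalTKO libraries, with groups that overlapped. Over all 20 genes the sums were 71.4 ± 4.26 and 64.0 ± 5.47 CPM and also overlapped. In bulk ovary RNA, fewer cells of a type and less RNA per cell cannot be told apart.

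The ovarian identity of the libraries was checked with marker lists. Summed granulosa markers (6 genes) lay between 3607 and 4500 CPM in wildtype and between 3783 and 4163 CPM in GalTKO libraries, and oocyte markers (8 genes) between 207 and 319 and between 236 and 282 CPM, so neither list separated the genotypes. Lists that did separate them were theca (4 genes; 6063 to 8826 against 3489 to 5562 CPM), leukocyte (4 genes; 60.1 to 63.2 against 35.5 to 44.1 CPM) and adipose (4 genes; 19.9 to 22.7 against 39.2 to 53.3 CPM), with the wildtype range first. Luteal, oviduct and red cell lists overlapped between the genotypes, and no marker was at 0 in all libraries. In edgeR 1 gene each passed in the granulosa, theca, adipose and leukocyte lists. Only 1 of the 4 adipose genes had enough reads to be tested. The part of these lists in the levels of the zinc finger genes was not tested.

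Of the 14 other zinc finger genes of the cluster, 7 had enough reads to be tested, 4 with a positive and 3 with a negative log2 fold change and a median of 0.22 (all tested genes: 0.02). In edgeR's quasi-likelihood test 0 of 7 passed, where 2.55% of all tested genes did, 1 had an unadjusted p under 0.05, and DESeq2 called 0. The groups did not overlap for 4 of the 7, against 23.7% of all tested genes, and the median size of the log2 fold change was 0.429, against 0.174. Zfp933, at the far end of the cluster, was the most abundant, at 17.2 ± 1.72 CPM against 23.2 ± 2.08 CPM (wildtype and GalTKO mean with SD; 0.43 ± 0.12 on the log2 scale with SE; edgeR adjusted p = 0.125). Zfp992 stood at 9.26 ± 0.30 and 10.8 ± 0.49 CPM (0.22 ± 0.12; adjusted p = 0.416). Zfp979 and Gm13212 are named after their values were seen, Zfp979 for the lowest log2 fold change of the 7 and Gm13212 because it shares stretches with Zfp984. Zfp979 stood at 8.82 ± 0.91 and 6.37 ± 2.02 CPM (-0.48 ± 0.23; adjusted p = 0.339). Gm13212, the zinc finger gene that follows Zfp990, with 20 fingers, stood at 5.19 ± 0.51 and 4.53 ± 1.23 CPM (-0.19 ± 0.23; adjusted p = 0.719). The other 7 genes, among them Rex2 and Zfp600, had too few reads to be tested. Outside the cluster but still beyond 140 Mb, Prdm2, a zinc finger methyltransferase gene, stood at 131 ± 2.86 and 123 ± 3.50 CPM (-0.09 ± 0.07; adjusted p = 0.568), and Zbtb17, a zinc finger transcription factor gene, differed by 0.37 ± 0.13 on the log2 scale (adjusted p = 0.202).

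Inside the cluster 8 further genes were tested, and 2 of them, both pseudogenes, fell. They are named to complete that count, after their values were seen. Znf41-ps, a zinc finger pseudogene, stood at 6.44, 7.02 and 6.76 CPM in the wildtype libraries and at 2.83, 1.38 and 1.25 CPM in the GalTKO libraries (log2 fold change -1.87 ± 0.31, SE; edgeR adjusted p = 0.0218). Leaving out GalTKO replicate 3 or any wildtype replicate (1, 2 or 3) ended the call, at adjusted p of 0.096 or less. Gm13238 fell, with 0.516 ± 0.105 against 0.0402 ± 0.0388 CPM (-3.41 ± 0.67; adjusted p = 0.0417). Its call was lost whichever of the 6 libraries was left out, with adjusted p up to 0.152, and with the replicate number as a block (0.0875).

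**Figure D3:**
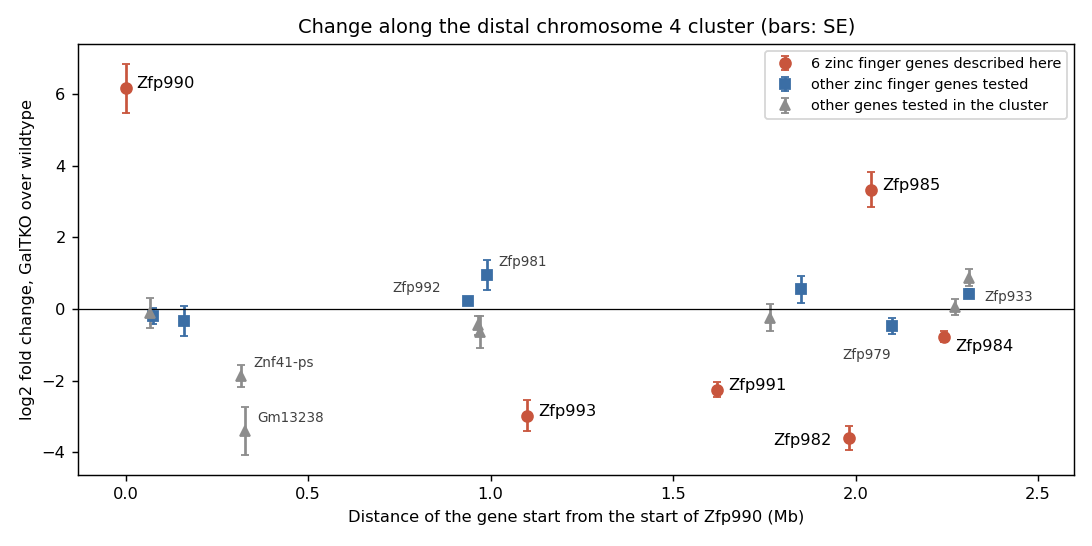
Fitted log2 fold change, GalTKO over wildtype (vertical axis, bars SE), of the tested genes of the cluster against the distance of their start from the start of Zfp990 in Mb (horizontal axis). The 6 genes described here (red) lie among other zinc finger genes (blue) and other genes (grey), and Zfp985 at 3.33 lies between Zfp982 at -3.60 and Zfp979 at -0.48.

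Because cluster genes are near-copies, the sequence each shares with other genes was measured, as the share of all 100-base stretches of its transcripts that also occur, letter for letter and on the same strand, in a transcript of another gene. The median over all tested genes was 0, and 6.38% of them shared more than 20%. Zfp985, Zfp982 and Zfp990 shared little: 1.73%, 3.06% and 3.60% of their 100-base stretches. Both higher members and the lower member with the largest difference are thus largely distinct from other annotated transcripts at that length. With 50-base stretches the shares were 15.88%, 11.89% and 29.08%. Of all tested genes 8.7% shared more than 20% at 50 bases, as Zfp990 did, and the median was 0. The read length is not stated, so how safely reads of Zfp990 were assigned is not known.

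Zfp991 and Zfp993 are different in this respect. Of the 100-base stretches of Zfp993, 71.85% lay in other genes and 68.45% in Zfp991. Of those of Zfp991, 70.34% lay in other genes and 56.86% in Znf41-ps. The 3 genes that share these stretches were each lower in GalTKO ovaries, and how the counting treated a read that matches several of them is not stated. The counts of Zfp993 were 0.116, 0.0827 and 0.092 of those of Zfp991 for the wildtype libraries and 0.098, 0.0426 and 0.0345 for the GalTKO libraries. Their levels are therefore uncertain, and they cannot be taken as separate observations.

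Zfp992 is closer still to Zfp991 in its coding sequence, with 8 edits over 1719 coding bases (99.5% identity), yet the ratio of the genes moved. Zfp991 had 1.19, 1.22 and 1.18 counts for each count of Zfp992 in the wildtype libraries, and 0.193, 0.184 and 0.270 in the GalTKO libraries. Zfp992 itself stood at 9.04, 9.60 and 9.14 CPM and at 10.3, 11.0 and 11.2 CPM in the same order. Of the 100-base stretches of Zfp992, 24.83% lay in Zfp991, so the near-identity of the coding sequences does not extend over the whole transcripts.

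Zfp984 shared 30.92% of its 100-base stretches with other genes and 26.75% with Gm13212. Zfp984 had 2.23, 2.18 and 2.20 counts for each count of Gm13212 in the wildtype libraries. In the GalTKO libraries the ratio was 1.76, 0.956 and 2.03, so GalTKO replicate 2 was lowest, and the groups did not overlap.

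**Figure D4:**
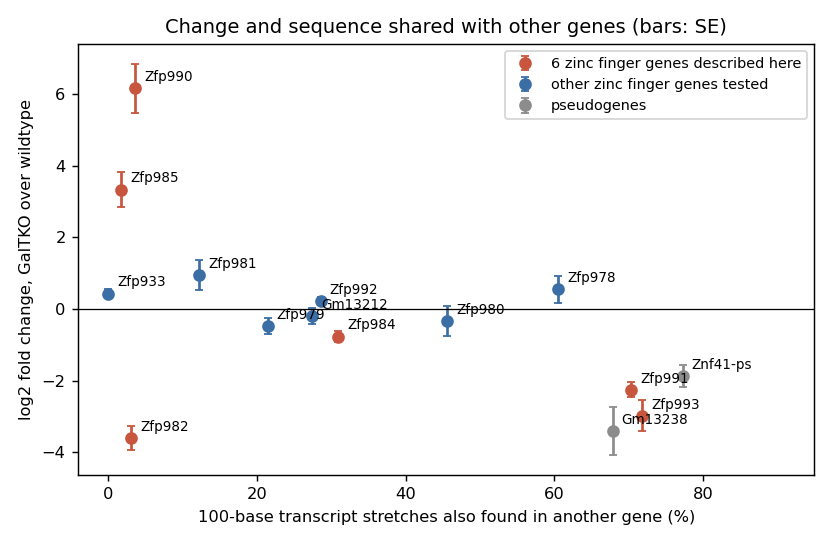
Log2 fold change, GalTKO over wildtype (vertical axis, bars SE), against the percentage of 100-base transcript stretches that also occur in another gene (horizontal axis) for the 6 genes (red), the 7 other tested zinc finger genes of the cluster (blue) and 2 pseudogenes (grey). Zfp990, Zfp985 and Zfp982 lie at the left edge, as does Zfp933 at 0.43, while Zfp991, Zfp993 and Znf41-ps lie together beyond 70% and the pseudogene Gm13238, at -3.41, lies at 67.84%.

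No gene of the proteins that KRAB boxes work through passed the threshold. None of 27 genes of a list of cofactors, which covers TRIM28, the methyltransferase SETDB1, heterochromatin proteins, histone deacetylases and DNA methylation enzymes, was called by edgeR (0) or DESeq2 (0). An unadjusted p below 0.05 was seen for 0 of them, while 17.1% of tested genes reached it. The list median was -0.008 (all tested genes: 0.02). Trim28 stood at 339 CPM against 331 CPM (wildtype and GalTKO means; log2 fold change -0.03 ± 0.11, SE; edgeR adjusted p = 0.916), and Setdb1 at 72.6 and 70.6 CPM (-0.04 ± 0.08; adjusted p = 0.842).

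Among the 363 other tested genes named Zfp and a number, of which 357 lie outside the cluster, 5 passed (1.38%, against 2.55% of all tested genes; the difference was not tested), 4 higher and 1 lower, and the median log2 fold change of the 363 was 0.05. The called genes were Zfp457, Zfp930, Zfp941 and Zfp641, which rose by 2.65 ± 0.51, 0.56 ± 0.11, 1.84 ± 0.38 and 1.36 ± 0.28 (log2, SE), and Zfp874a, which fell (-0.98 ± 0.19), named after their values were seen. Their edgeR adjusted p lay between 0.038 and 0.0468. Each lost its call in at least 5 of the 6 fits with a library left out, and the count of 5 became 0 without wildtype replicate 1, 2 or 3 or GalTKO replicate 3, 1 without GalTKO replicate 1 and 3 with the replicate number as a block. Zfp457 and Zfp874a lie on chromosome 13, at chr13:67288138-67306485 and chr13:67424549-67451624.

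Beyond the cluster, distal chromosome 4 held further changed genes. Galt itself lies on the same chromosome, at chr4:41755228-41758695. Whether strain haplotypes differed between the genotypes along this chromosome was not tested. Of 178 tested genes from 140 Mb on that lie outside the cluster, 14 passed, 6 higher and 8 lower, which is 7.87% against 2.55% of all tested genes; the difference was not tested. With the cluster but without the 6 members, 16 of 193 passed (8.29%). That count was 9, 7 or 8 when wildtype replicate 1, 2 or 3 was left out. It was 7, 20 or 10 without GalTKO replicate 1, 2 or 3. Over all tested genes 433 passed, and 181, 165, 202, 263, 742 and 322 did in these fits, in the same order. The smallest p-values among non zinc finger genes belonged to Pdpn, C87977, Gm13103 and Gm13023. Pdpn, the membrane glycoprotein podoplanin of lymphatic endothelium, fell, with 53.9 ± 4.17 CPM in wildtype libraries and 23.7 ± 1.96 in the others (SD; -1.19 ± 0.10 on the log2 scale, SE; edgeR adjusted p = 0.000859). C87977 rose from 4.88 ± 0.88 to 17.5 ± 1.76 CPM (1.84 ± 0.17; adjusted p = 0.00101). Gm13103 fell (-4.05 ± 0.51; adjusted p = 0.00607) and Gm13023 rose (1.32 ± 0.17; adjusted p = 0.00618). Within 2 Mb on either side of the cluster 5 of 50 tested genes passed, 4 higher and 1 lower. All 5 lay before the start of Zfp990, where 14 of the 50 genes are, and 36 lie after the cluster.

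**Figure D5:**
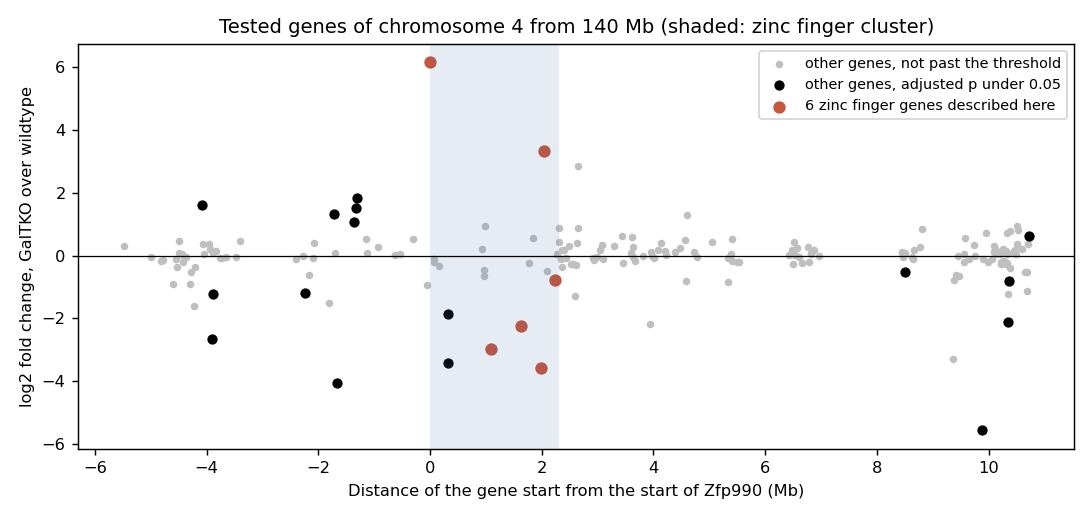
Fitted log2 fold change, GalTKO over wildtype (vertical axis), of all tested genes of chromosome 4 from 140 Mb against the distance of their start from the start of Zfp990 in Mb (horizontal axis, cluster shaded). Of the 193 other genes, 16 pass an adjusted p of 0.05 (black), on both sides of the cluster and in both directions, and the 6 zinc finger genes are in red.

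The patterns of Zfp990 and Zfp982 over the 6 libraries were compared with those of 15076 genes whose mean reached 1 CPM in a genotype, by Pearson correlation of log2 CPM, which is a description since all genes share the same libraries. Closest to Zfp990 were Rian (r = 0.994), Amd2 (r = 0.993) and Gm11808 (r = 0.992), with log2 fold changes of 0.67, 3.25 and 0.99. Closest to Zfp982 were Gm6658 (r = 0.997), Washc4 (r = 0.996) and Slc35g1 (r = 0.996), with log2 fold changes of -0.80, -0.18 and -0.45. A correlation over 0.95 was reached by 103 genes for Zfp990 and by 212 for Zfp982. Both patterns are close to a step between the genotypes. The correlations thus largely restate the contrast that chose the members.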

How the data were processed

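Raw counts of reads for each Ensembl gene in 6 libraries, not normalized, are what the authors deposited. Per the labels' protocols, ribosomal RNA was removed and stranded total RNA libraries were made. The submitters' processing notes name STAR 2.7.6a and cutadapt 1.16, DESeq2 1.30.1 and featureCounts 1.6.3, and the build GRCm38. The sources used here do not give their settings, the read length or the handling of reads with several matches, which matters most for near-identical zinc finger genes.

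Genes were annotated with GENCODE M21 (55227 of 55487 identifiers matched). In R 4.3.3, edgeR 4.0.16 kept 16957 genes by filterByExpr (minimum count 10, total 15) and scaled libraries by TMM. Genotype was the only term of a robust quasi-likelihood fit over all 6 libraries, with Benjamini-Hochberg adjustment over all genes and a two-sided threshold of 0.05. The script was tested on simulated data. The SE is the log2 fold change divided by the square root of F. Fingers, KRAB boxes and shared stretches came from GENCODE transcripts and upstream sequences from RefSeq; 3 or more fingers, or a Zfp symbol, made a zinc finger gene. Alignments used edlib 1.3.9.post1.

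The members and lists were chosen with earlier results of these data known. Named genes were the members, Galt, called zinc finger genes of the chromosome from 140 Mb and the 4 most abundant not called, the 4 other genes of that region with the smallest p, called cofactors with Trim28 and Setdb1, and the 3 genes closest in pattern to Zfp990 and Zfp982. Alternatives were median-of-ratios scaling, the DESeq2 1.42.0 Wald test with its own filtering (and, added later, on edgeR's filtered genes), no low-count filter, a filter of 1 CPM in 3 libraries, a replicate block and each library left out.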

Additional observations from a re-analysis of the deposited data

How the results depend on the processing

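The 4 lower and 2 higher members kept these directions in every alternative that tested them; with a filter of 1 CPM in 3 libraries Zfp993 was not tested, which left 3 lower members. Under the alternatives 69 of the members' log2 fold changes moved by less than the SD between replicates and 2 by more, the 2 given with Zfp993 and Zfp985. The 69 include Zfp990 without wildtype replicate 3, a value set by the floor of 3 counts and not fitted. Leaving out a library or changing the scaling can seldom move a value by more than that SD. The 69 therefore do not show stability. All 6 members stayed past the threshold with the other scaling, with either DESeq2 run and with no low-count filter, and 3 to 5 did with a library left out. The number of changed genes among all those tested was 433. DESeq2 was run with its own filtering in place of edgeR's and, chosen after seeing the data, on the genes that edgeR's filter kept. The number was 1024 and 1049 in these DESeq2 runs, 877 with no low-count filter, and from 165 to 742 with a library left out. Among distal chromosome 4 genes that are not members it was 16, against 30 in each DESeq2 run, 25 with no low-count filter and from 7 to 20 with a library left out. Among other Zfp genes it was 5, against 8 and 9 with DESeq2 and from 0 to 4 with a library left out. The count of cofactors and of other cluster zinc finger genes was 0 in all of these. Libraries with the same replicate number correlated at 0.093, -0.04 and 0.078 in their deviations from the group means. Those with different numbers correlated at -0.118 to 0.029. With only 3 libraries per group these values cannot settle whether the numbers pair the samples. With the replicate numbers as a block 321 genes were called over all genes, 15 on distal chromosome 4 and 3 among other Zfp genes. Depth limits the members most for Zfp990 and Zfp985 in wildtype and Zfp993 in GalTKO ovaries, with 5, 10 and 9 counts in 3 libraries.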
